A study of Mus musculus with 14 samples.

Results

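The reproductive homeobox (*Rhox*) genes are a family of X-linked homeobox genes that lie side by side in a cluster of the mouse X chromosome. The 6 members described here, *Rhox1*, *Rhox4b*, *Rhox5*, *Rhox6*, *Rhox9* and *Rhox10*, were chosen by name. Of these, 5 were found in the table of 23298 genes, 4 were detected above 0 in some line, and *Rhox5* is not analysed here. The table holds 30 *Rhox* genes in all. RNA had been sequenced from 14 mouse embryonic stem (ES) cell lines, each grown from a single blastocyst and kept in serum and leukemia inhibitory factor on feeder layers of mouse embryonic fibroblasts, which were depleted in a pair of consecutive steps before RNA was isolated. All lines are F1 hybrids of the inbred strains C57BL/6J (B) and CAST/EiJ (C), with the mother's strain named first. There were 3 BC XX, 3 BC XY and 2 BC XO lines from C57BL/6J mothers and CAST/EiJ fathers, and 3 CB XX and 3 CB XY lines from CAST/EiJ mothers and C57BL/6J fathers. By inheritance, XX lines of both crosses carry 1 X chromosome of each strain, whereas the X chromosome of an XY line is maternal, C57BL/6J in BC XY and CAST/EiJ in CB XY lines. Each line is a culture of its own, and the XO group rests on 2 lines.

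*Rhox* genes encode homeodomain transcription factors that are expressed mainly in the testis, epididymis, ovary and placenta. Members are grouped into subclusters along the chromosome, and the family is known for being held silent by DNA methylation in many somatic cells and for its expression in germ cells and extraembryonic tissue. Female mouse ES cells keep both X chromosomes active, so that an X-linked gene can be transcribed from both copies in XX lines and from a single copy in XY and XO lines. *Rhox6* and *Rhox9* are closely related paralogs with expression in the placenta and in germ cells, *Rhox10* is expressed in male germ cells, and *Rhox1* lies at one end of the cluster. In the mm9 annotation, *Rhox1* lies on chrX:34753799-34762253 on the minus strand, *Rhox4b* on chrX:34847001-34851786, *Rhox6* on chrX:35180087-35183034 on the plus strand, *Rhox9* on chrX:35252274-35255044 on the minus strand and *Rhox10* on chrX:35419652-35443251 on the plus strand.

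The values are reads per gene that the authors scaled to a common depth, with totals per line of 28150946 to 30657803. Between 96.2% and 98.2% of the values of a line lie within 0.05 of a whole multiple of 1 step, which is between 0.407 and 2.46. If 1 step is taken as 1 read, lines hold 11904424 to 69646276 reads, and a value at or under 3 steps, which lies between 1.22 and 7.37 depending on the line, cannot be told from 0. The lines labelled CB XY 2 and 3 had values of the Y-linked gene *Uty* of 19.6 and 45.4, within the range of the XX lines. *Uty* was at 945 to 2088 in BC XY lines and 1149 in CB XY 1. The main differences of members from CB XY lines are therefore also given without CB XY 2 and 3. Other Y-linked genes separated XX from XY lines less well. BC XX 3 had 1024 for *Ddx3y*, beside 1115 in BC XY 3. It also had 317 for *Eif2s3y* and 123 for *Kdm5d*, both above every BC XY line (highest 255 and 28.7). The source of Y-linked RNA in XX lines was not tested. The pluripotency gene *Pou5f1* was at 10829.8 to 29386 in the XX, 17312 to 26655 in the XY and 22594 to 27665 in the XO lines, and *Nanog* at 4853 to 12130, 5163 to 10050.2 and 7489 to 10809. Feeder RNA was not equal between groups. The mean log2 level of 29 fibroblast genes was 10.9, 11.6 and 12.1 in BC XX 1, 2 and 3, and between 8.46 and 10.2 in the other lines. Its part in the differences described here was not tested beyond fits with that level as a covariate. Every BC XX line was above every other line in that level. Such fits therefore cannot well separate feeder level from group in comparisons with BC XX lines.

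Because *Rhox6* and *Rhox9* have nearly the same sequence, it was first asked which parts of their transcripts can tell them apart. Their coding sequences (684 bases each, GENCODE transcripts of mm9) differ at 64 positions and are 90.6% identical. Shown first is the window of 90 bases within exon 2 with the most differences, 22, which are in capitals. It covers coding bases 373 to 462, at chrX:35180833-35180922 on the plus strand for *Rhox6* and chrX:35254209-35254298 on the minus strand for *Rhox9*.
Rhox6: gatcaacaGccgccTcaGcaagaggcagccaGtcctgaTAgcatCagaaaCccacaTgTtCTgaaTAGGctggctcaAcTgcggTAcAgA
Rhox9: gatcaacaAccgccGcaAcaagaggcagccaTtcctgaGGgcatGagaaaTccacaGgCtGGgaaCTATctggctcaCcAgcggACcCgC
The longest stretch shared without a difference covers 161 bases (coding bases 167 to 327, also in exon 2). It is printed because a read of 50 bases that falls inside it cannot be assigned to either gene.
Rhox6 and Rhox9: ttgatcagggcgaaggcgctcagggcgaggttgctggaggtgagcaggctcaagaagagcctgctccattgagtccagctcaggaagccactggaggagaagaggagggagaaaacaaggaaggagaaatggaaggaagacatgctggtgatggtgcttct
Over the whole transcripts, 256 of the 961 windows of 50 bases in *Rhox6* (26.6%) and of the 930 windows in *Rhox9* (27.5%) also occur in the other gene. No window of *Rhox1* or *Rhox10* occurs in another protein-coding transcript. How the authors' counting shared such reads is not given in the sources used here, so that the values of *Rhox6* and *Rhox9* are each uncertain by the reads they share.

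*Rhox6* and *Rhox9* made up most of the signal of the 30 *Rhox* genes in the table, which do not include *Rhox5*. Reads shared among the copies of *Rhox2*, *Rhox3* and *Rhox4* were not examined. Together they held between 88.5% (CB XX 2) and 98.7% (CB XY 1) of the summed value of all 30 *Rhox* genes, which itself ranged from 463 to 4254. Levels between genes were compared per kb of transcript. The mean over 14 lines was 990.4 per kb for *Rhox6* and 680.3 per kb for *Rhox9*, against 48.1 per kb for *Rhox1* and 8.19 per kb for *Rhox10*. *Rhox4b* was listed at 0 in all 14 lines.

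*Rhox1* was the member that separated XX lines from all others. Its values were 63.7, 59.0 and 30.5 in the BC XX lines and 159, 155 and 52.4 in the CB XX lines. In the BC XY lines they were 3.75, 13.3 and 10.7, in the CB XY lines 2.02, 4.91 and 28.6, and in the XO lines 6.38 and 5.69. All 6 XX lines were above all 6 XY lines and both XO lines, with the smallest gap between BC XX 3 and the line labelled CB XY 3. BC XY 1, CB XY 1 and CB XY 2 lay at or under the value of 3 steps. By group, the mean was 122 ± 60.4 (SD, n = 3) in CB XX, 51.1 ± 18.0 (SD, n = 3) in BC XX, 11.8 ± 14.6 (SD, n = 3) in CB XY, 9.25 ± 4.94 (SD, n = 3) in BC XY and 6.04 ± 0.488 (SD, n = 2) in BC XO lines.

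**Figure D1:**
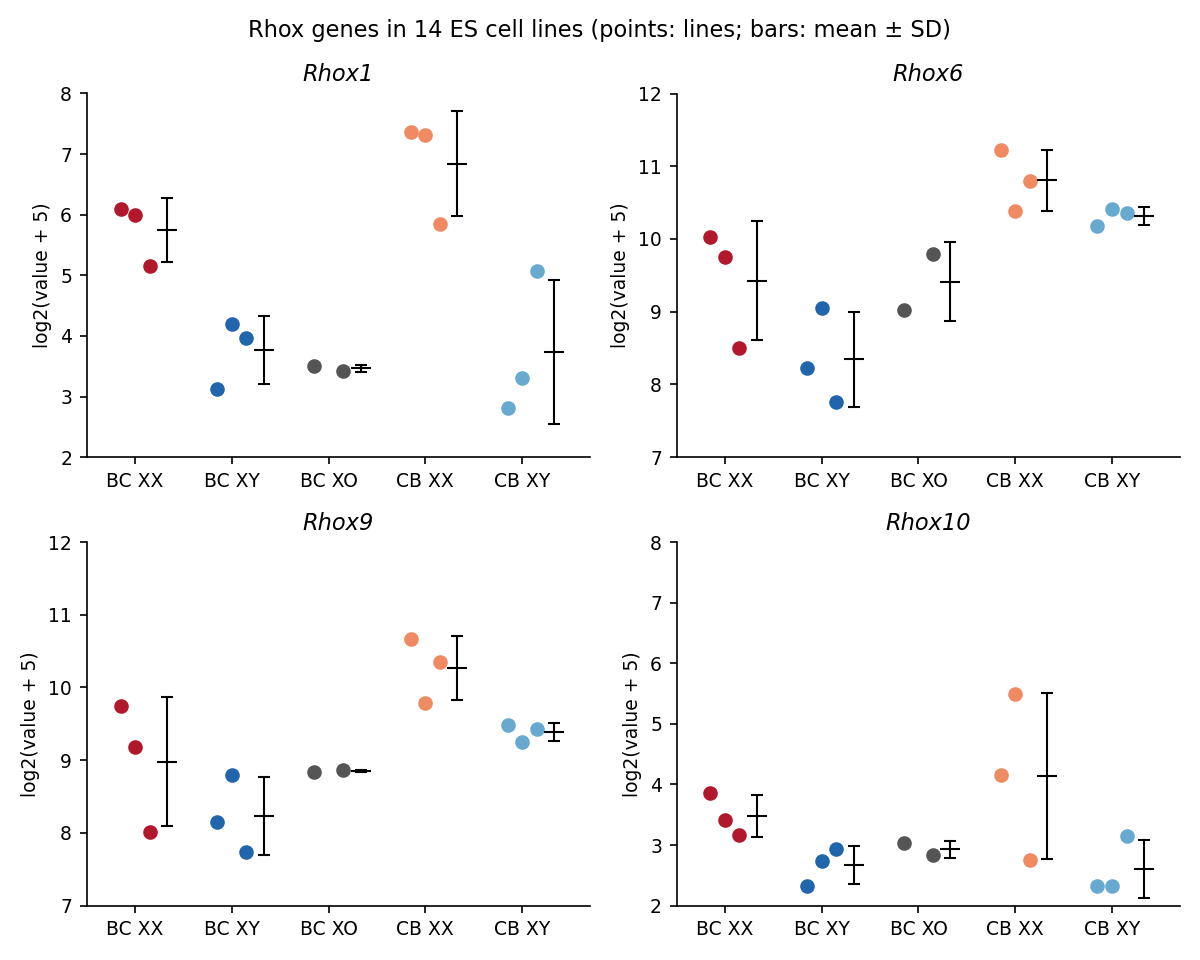
Values of 4 *Rhox* genes in 14 ES cell lines, on a scale of log2(value + 5), where each point is 1 line and the bars give the mean and SD of a group. The 6 XX lines lie above all other lines for *Rhox1*, whereas for *Rhox6* the 6 CB lines lie above all BC lines.

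Groups were compared on the log2(value + 5) scale with limma, and p-values were adjusted by Benjamini-Hochberg across the genes of each fit. For genes with low values, such fold changes are smaller than those of the values themselves. Over the 12 XX and XY lines, *Rhox1* was 5.85-fold higher in XX lines (log2 fold change 2.55, SE 0.44, adjusted p = 0.0051). It was the 1 member of 3 tested that passed an FDR of 0.05, where 3.21% of all 15311 genes tested and 40% of the 565 X-linked genes tested were higher in XX lines. Likewise, 2.29% of all genes and 28% of X-linked genes had every XX line above every XY line. Of the 561 other X-linked genes tested, 11 had a larger log2 fold change than *Rhox1*, and the median over X-linked genes outside the family was 0.65. The difference remained past the threshold without the lines labelled CB XY 2 and 3 (2.77, adjusted p = 0.010) and with the fibroblast level as a covariate (3.16, adjusted p = 0.0068).

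The same direction was found within each cross. *Rhox1* was higher in BC XX than in BC XY lines (log2 fold change 1.98, SE 0.55, adjusted p = 0.048 in limma) and higher in CB XX than in CB XY lines (3.11, SE 0.55, adjusted p = 0.0086). It was the 1 member of 4 tested that passed in either comparison, where 4.46% (BC) and 2.11% (CB) of the 16261 genes tested and 22.4% and 33.7% of the X-linked ones were higher in XX lines. Without the lines labelled CB XY 2 and 3, the CB difference was 4.03 (adjusted p = 0.015), and it passed without 5 of 6 lines in turn but not without CB XX 2 (2.87, adjusted p = 0.052). The BC difference lay close to the threshold and was not past it without any 1 of the 6 lines (1.67 to 2.29, adjusted p = 0.085 to 0.14). With the fibroblast level as a covariate it was larger but not past the threshold (2.54, adjusted p = 0.45). That fit cannot decide here, because every BC XX line had a higher fibroblast level than every BC XY line.

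XO lines, which have 1 X chromosome and no Y chromosome, had *Rhox1* levels in the range of XY lines. The gene was 4.88-fold higher in BC XX than in BC XO lines (log2 fold change 2.29, SE 0.61, adjusted p = 0.0495 in limma), and the other 3 members tested did not pass, where 3.06% of genes and 19.6% of X-linked genes were higher in XX lines. This call was lost without any 1 of the 5 lines (adjusted p = 0.079 to 0.27) and with the fibroblast covariate (2.71, adjusted p = 0.28). Between XO and XY lines of the BC cross the log2 difference of *Rhox1* was -0.30 (SE 0.61, adjusted p = 1.0, 95% interval -1.61 to 1.01). No member passed in that comparison with limma, where 1 gene of 16261 did (0.00615%), and 1 member, *Rhox6*, had an unadjusted p below 0.05.

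It was also tested whether the differences exceed 2-fold. In a limma test against a fold of 2, no member passed after adjustment in any of the 4 comparisons, where between 0% (BC XX against BC XO) and 0.0984% (BC XX against BC XY) of genes did. For *Rhox1* the unadjusted p was 0.0016 over all XX and XY lines and 0.00086 within the CB cross (adjusted p = 0.99 and 0.87), and *Rhox1* was the 1 member with an unadjusted p below 0.05 in each of the 4 comparisons. Its 95% interval over the 12 lines, 1.61 to 3.49, lies above the log2 value of 1 that a 2-fold difference gives. The difference between XX and XY lines was larger by 1.13 (SE 0.78) on the log2 scale in the CB than in the BC cross, which was within the error (adjusted p = 0.71). No member of 4 tested differed in this way between the crosses in limma, none at an unadjusted p below 0.05, where 0.0738% of genes did.

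**Figure D2:**
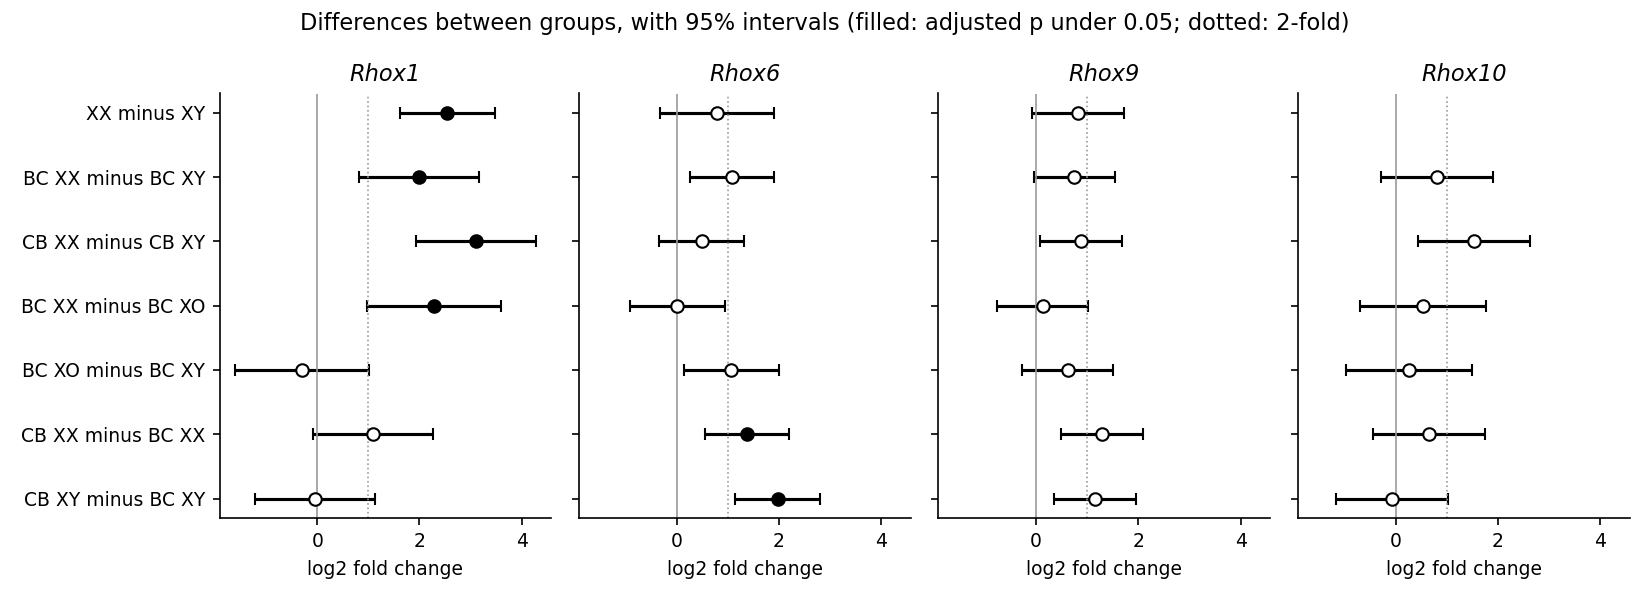
Log2 fold changes of 4 *Rhox* genes (horizontal axis, on the log2(value + 5) scale) in 7 comparisons, with 95% intervals. Filled points have an adjusted p below 0.05 and the dotted line marks 2-fold. *Rhox1* passed in the 4 comparisons of XX lines with lines of 1 X chromosome and *Rhox6* in both comparisons of crosses, and *Rhox10* had too few lines over the minimum value for XX minus XY.

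*Rhox6* was higher in CB than in BC lines, a difference that in XX lines did not pass with the fibroblast covariate. In the BC lines its values were 1041, 858 and 358 in XX, 294, 525 and 212 in XY and 518 and 883 in XO lines. In the CB lines they were 2384, 1334 and 1783 in XX and 1153, 1353 and 1311 in XY lines. Every CB line was above every BC line, as for 0.59% of all genes and 0.66% of X-linked genes. The mean was 1833 ± 527 (SD, n = 3) in CB XX, 1273 ± 105 (SD, n = 3) in CB XY, 752 ± 354 (SD, n = 3) in BC XX, 700.2 ± 258 (SD, n = 2) in BC XO and 343 ± 162 (SD, n = 3) in BC XY lines. In this order the CB XY and BC XX lines did not overlap, whereas all other neighbours did.

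*Rhox6* was 3.93-fold higher in CB XY than in BC XY lines (log2 fold change 1.97, SE 0.39, adjusted p = 0.038 in limma) and 2.60-fold higher in CB XX than in BC XX lines (1.38, SE 0.39, adjusted p = 0.046). It was the 1 member of 4 tested that passed in each comparison. Of 16261 genes, 0.547% were higher in CB XY and 2.9% in CB XX lines, and of X-linked genes 0.99% and 1.49%. Among the 599 other X-linked genes, 2 had a larger difference between the XY groups and 4 between the XX groups. Neither call was firm. Between XY lines it was lost without any 1 of the 6 lines (1.68 to 2.33, adjusted p = 0.085 to 0.13), and without the lines labelled CB XY 2 and 3 the difference was 1.83 (adjusted p = 0.34), while with the fibroblast covariate it was 2.07 (adjusted p = 0.013). Between XX lines it held only without BC XX 1 (adjusted p = 0.022), and the difference was 0.73 (adjusted p = 0.78) with the fibroblast covariate.

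Within the 6 XX lines, *Rhox6* and *Rhox9* were lower where the fibroblast level was higher. Pearson's r of their log2 values with that level was -0.94 and -0.92 over 6 lines, which share libraries, and -0.80 for *Rhox1*. The 3 highest fibroblast levels among these were those of the BC XX lines, so that r and the difference between the crosses cannot be told apart. Over the 6 XY lines r was 0.25, 0.37 and 0.10, and over 14 lines it was -0.055 for both *Rhox6* and *Rhox9* and 0.36 for *Rhox1*. In bulk RNA, fewer ES cells in a sample and less RNA per cell cannot be told apart.

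Between XX and XY lines no difference of *Rhox6* passed with all lines included. The log2 fold change was 0.79 over 12 lines (SE 0.52, adjusted p = 0.39), 1.09 in the BC cross (SE 0.39, adjusted p = 0.11) and 0.49 in the CB cross (SE 0.39, adjusted p = 0.54). The 95% interval over 12 lines was -0.33 to 1.91, which holds both 0 and a 2-fold difference. Without BC XX 3, the line with the highest fibroblast level, the BC difference was 1.55 (adjusted p = 0.045). With the fibroblast covariate the differences were 1.46 over 12 lines, 1.95 within BC lines and 0.61 within CB lines (adjusted p = 0.25, 0.34 and 0.40). Without the lines labelled CB XY 2 and 3, that over 12 lines was 1.31 and that of the CB cross 0.63 (adjusted p = 0.23 and 0.71). With 1 line left out they were as low as 0.47 (without BC XY 3) over 12 lines and 0.28 (without CB XX 1) in the CB cross. XX and XO lines of the BC cross differed by 0.017 (SE 0.43, adjusted p = 0.99).

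*Rhox9* had the same order of crosses with smaller steps. Its values were 856, 577 and 252 in BC XX, 280, 441 and 209 in BC XY and 453 and 461 in BC XO lines. They were 1622, 879 and 1297 in CB XX and 711, 602 and 684 in CB XY lines. All CB XX lines were above all CB XY and all BC XX lines, as for 11.7% and 12.6% of all genes, each comparison taken alone. The lowest CB XX value, 879, was close to the highest BC XX value, 856. CB XY lines overlapped with BC XX lines. They were above all BC XY lines, as for 14% of all genes. The mean was 1266 ± 373 (SD, n = 3) in CB XX, 666 ± 56.9 (SD, n = 3) in CB XY, 562 ± 302 (SD, n = 3) in BC XX, 457 ± 5.62 (SD, n = 2) in BC XO and 310.0 ± 119 (SD, n = 3) in BC XY lines.

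No difference of *Rhox9* passed the threshold with all lines included. In limma, its log2 fold change was 1.29 (SE 0.37, adjusted p = 0.052) between CB XX and BC XX and 1.15 (SE 0.37, adjusted p = 0.12) between CB XY and BC XY lines, with every CB line above every BC line in both. In these comparisons 12.6% and 14% of all genes did not overlap between groups in that direction. Between XX lines the difference was 1.67 (adjusted p = 0.015) without BC XX 1, 0.80 (adjusted p = 0.25) without BC XX 3 and 0.69 (adjusted p = 0.79) with the fibroblast covariate. Between XX and XY lines it was 0.82 over 12 lines (SE 0.42, adjusted p = 0.26, 95% interval -0.082 to 1.71), 0.75 within BC lines and 0.88 within CB lines (SE 0.37 in both, adjusted p = 0.25 and 0.22). All 3 CB XX lines were above the 3 CB XY lines, as were 11.7% of all genes and 56.8% of X-linked genes. Without the lines labelled CB XY 2 and 3, the *Rhox9* difference was 1.08 over the XX and XY lines, 0.78 in the CB cross and 1.25 between XY lines (adjusted p = 0.28, 0.61 and 0.45). With the fibroblast covariate it was 1.49 over 12 lines and 1.55 in the BC cross (adjusted p = 0.099 and 0.47), and without BC XX 1 it was 0.36 in the BC cross (adjusted p = 0.57).

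The paralogs varied together. Over the 14 lines, Pearson's r between *Rhox6* and *Rhox9* was 0.95 on the log2(value + 5) scale, a description over lines that share libraries and, for this pair, reads. *Rhox9* was the gene most like *Rhox6* among 16261 genes. *Rhox6* was above *Rhox9* in all 14 lines. The ratio of *Rhox6* to *Rhox9* ranged from 1.01 to 1.19 in BC XY, 1.22 to 1.49 in BC XX, 1.37 to 1.52 in CB XX and 1.62 to 2.25 in CB XY lines, and was 1.14 and 1.92 in the XO lines. The XY groups of the crosses thus had the lowest and the highest ratios, with both XX groups between them. Reads of all lines had been aligned to mm9, the genome of C57BL/6J, and the effect of CAST/EiJ alleles on the assignment of reads between the paralogs was not tested.

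**Figure D3:**
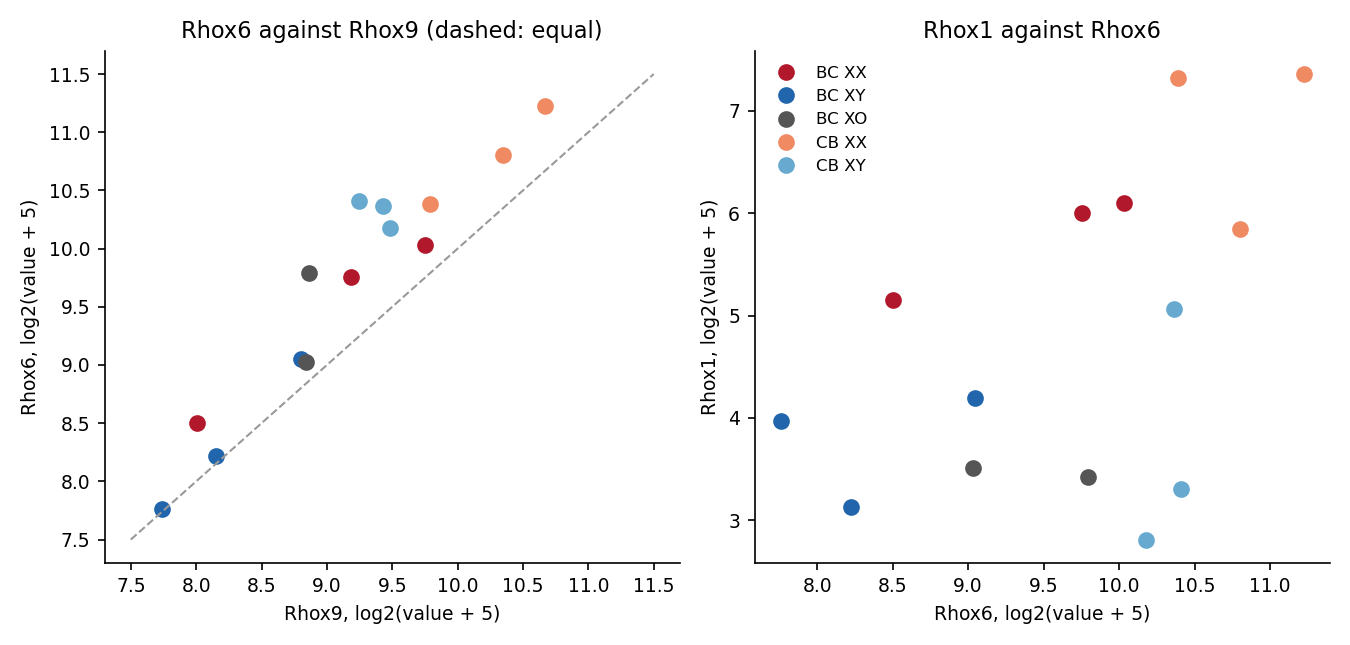
Levels of *Rhox6* against *Rhox9* (left) and of *Rhox1* against *Rhox6* (right) in 14 lines, as log2(value + 5) on both axes, where each point is 1 line and colours mark the groups. *Rhox6* rises with *Rhox9* and lies above the dashed line of equal values, while the CB XY lines combine high *Rhox6* with low *Rhox1*.

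*Rhox10* was near the lower limit of detection. Its values were 9.52, 5.70 and 3.93 in BC XX, 0, 1.66 and 2.68 in BC XY, 3.19 and 2.13 in BC XO, 12.8, 40.2 and 1.78 in CB XX and 0, 0 and 3.89 in CB XY lines. It was over the value of 3 steps in 7 of 14 lines and reached 10 only in CB XX 1 and CB XX 2, so that it entered the 5-group model through a group where it is high and was not tested over 12 lines. In limma, the log2 fold change between CB XX and CB XY lines was 1.54 (SE 0.51, adjusted p = 0.12) and between BC XX and BC XY lines 0.81 (SE 0.51, adjusted p = 0.37). CB XX 2 was highest and CB XX 3, the deepest line of that group, was in the range of XY lines. Without the lines labelled CB XY 2 and 3 the CB difference was 1.82 (adjusted p = 0.34). Leaving out CB XX 3, the low line of the group through which the gene entered the model, gave 2.23 (adjusted p = 0.012), a value that follows from that choice of lines. Over 14 lines, r of *Rhox10* with *Rhox1* was 0.85 and with *Rhox6* 0.34.

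The promoters of *Rhox1* and *Rhox10*, the members with RNA in these lines for which the promoter table used here has an entry, are shown because the family is known for control by methylation of CpG, the letters CG on either strand. Printed are the 250 bases before the start of each gene from RefSeq (GRCm38.p6), with CG in capitals, at chrX:37222259-37222508 on the minus strand for *Rhox1* and chrX:38066225-38066474 on the plus strand for *Rhox10*.
Rhox1: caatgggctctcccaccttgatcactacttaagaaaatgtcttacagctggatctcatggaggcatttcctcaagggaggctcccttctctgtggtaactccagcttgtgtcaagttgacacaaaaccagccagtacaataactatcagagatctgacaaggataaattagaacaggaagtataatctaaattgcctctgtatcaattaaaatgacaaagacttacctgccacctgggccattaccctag
Rhox10: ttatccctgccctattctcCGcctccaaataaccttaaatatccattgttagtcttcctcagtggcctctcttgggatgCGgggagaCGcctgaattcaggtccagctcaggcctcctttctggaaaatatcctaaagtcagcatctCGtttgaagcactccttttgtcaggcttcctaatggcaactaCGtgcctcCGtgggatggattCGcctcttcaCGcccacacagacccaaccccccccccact
The *Rhox1* window holds no CG, as do 7.87% of 32851 mouse promoters of the same length and 134 of 1223 X-linked ones. The *Rhox10* window holds 8, and 43.0% of all promoters hold as many or more. Promoters of 4 of the 6 members were matched, and those of *Rhox6* and *Rhox9* were not analysed here. Methylation was not measured in these data.

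Among the other 25 *Rhox* genes of the table, 10 were at 0 in all lines and 7 exceeded 3 steps in at least 1 line. *Rhox7*, whose gene (chrX:35184863-35194348) lies next to *Rhox6*, had values of 34.1, 24.4 and 24.9 in CB XX, 16.2, 12.3 and 19.5 in CB XY, 9.52, 13.8 and 5.89 in BC XX, 0, 2.49 and 4.69 in BC XY and 3.19 and 7.11 in BC XO lines. It was at 10 or more in all 6 CB lines and in 1 BC line, so that it entered the model through the CB lines. It was higher in CB than in BC lines, both XX (log2 fold change 1.18, SE 0.32, adjusted p = 0.041 in limma) and XY (1.54, SE 0.32, adjusted p = 0.042), and its r with *Rhox6* over 14 lines was 0.88. Without the lines labelled CB XY 2 and 3 these were 1.18 and 1.57 (adjusted p = 0.062 and 0.32), and with the fibroblast covariate 0.81 and 1.60 (adjusted p = 0.73 and 0.016). *Rhox13* lies beyond *Rhox10* and reached 17.1, 46.3 and 9.77 in the CB XX lines against 0 to 5.19 in CB XY lines (1.68, SE 0.45, adjusted p = 0.055). In the BC cross the difference was 0.10 (SE 0.45), and the crosses did not differ past the threshold (-1.58, SE 0.64, adjusted p = 0.47). Without the lines labelled CB XY 2 and 3 the CB difference of *Rhox13* was 2.35 (adjusted p = 0.12), and with the fibroblast covariate 1.75 (adjusted p = 0.045). *Rhox8*, between *Rhox7* and *Rhox9*, ranged from 2.50 to 15.9 with no difference past the threshold in any comparison of crosses or of XX with XY lines (largest -0.50, SE 0.34, CB XX minus BC XX, adjusted p = 0.36). The 4 others, *Rhox2b*, *Rhox2d*, *Rhox2e* and *Rhox4g*, had at most 9 steps in a line.

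The neighbours of the cluster were taken as genes within 500 kb of its outermost members in mm9. Of 21 such genes outside the family, 17 were tested and 9 were higher in XX than in XY lines in limma. Of all genes tested 3.21% were higher there, and of X-linked genes 40%. The log2 fold changes of these 9 were 0.51 to 1.70. The median over the 17 was 0.65, beside 0.65 over X-linked genes outside the *Rhox* family. Examples are *Upf3b*, a factor of nonsense-mediated mRNA decay (0.88, SE 0.12, adjusted p = 0.0015), and *Nkap*, a transcriptional regulator (0.77, SE 0.11, adjusted p = 0.0017). *Gm9*, a gene of unknown role next to *Rhox1* (chrX:34748497-34751036), had the largest difference of the neighbours, 1.70 (SE 0.33, adjusted p = 0.010). Its means were 37.1 in XX and 7.86 in XY lines. Every XX line was above every XY line, as for 2.29% of all genes and 28% of X-linked genes. *Gm9* and *Rhox1* do not overlap in the annotation. Between the crosses, none of the 17 neighbours passed either for XX or for XY lines in limma (4 and 3 with an unadjusted p below 0.05). Between XX lines, 7.15% of all genes and 6.93% of X-linked genes passed in either direction. Between XY lines few did, 0.64% of all genes and 1.82% of X-linked genes. The medians of the neighbours were 0.23 and -0.16, against 1.38 and 1.97 for *Rhox6*.

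**Figure D4:**
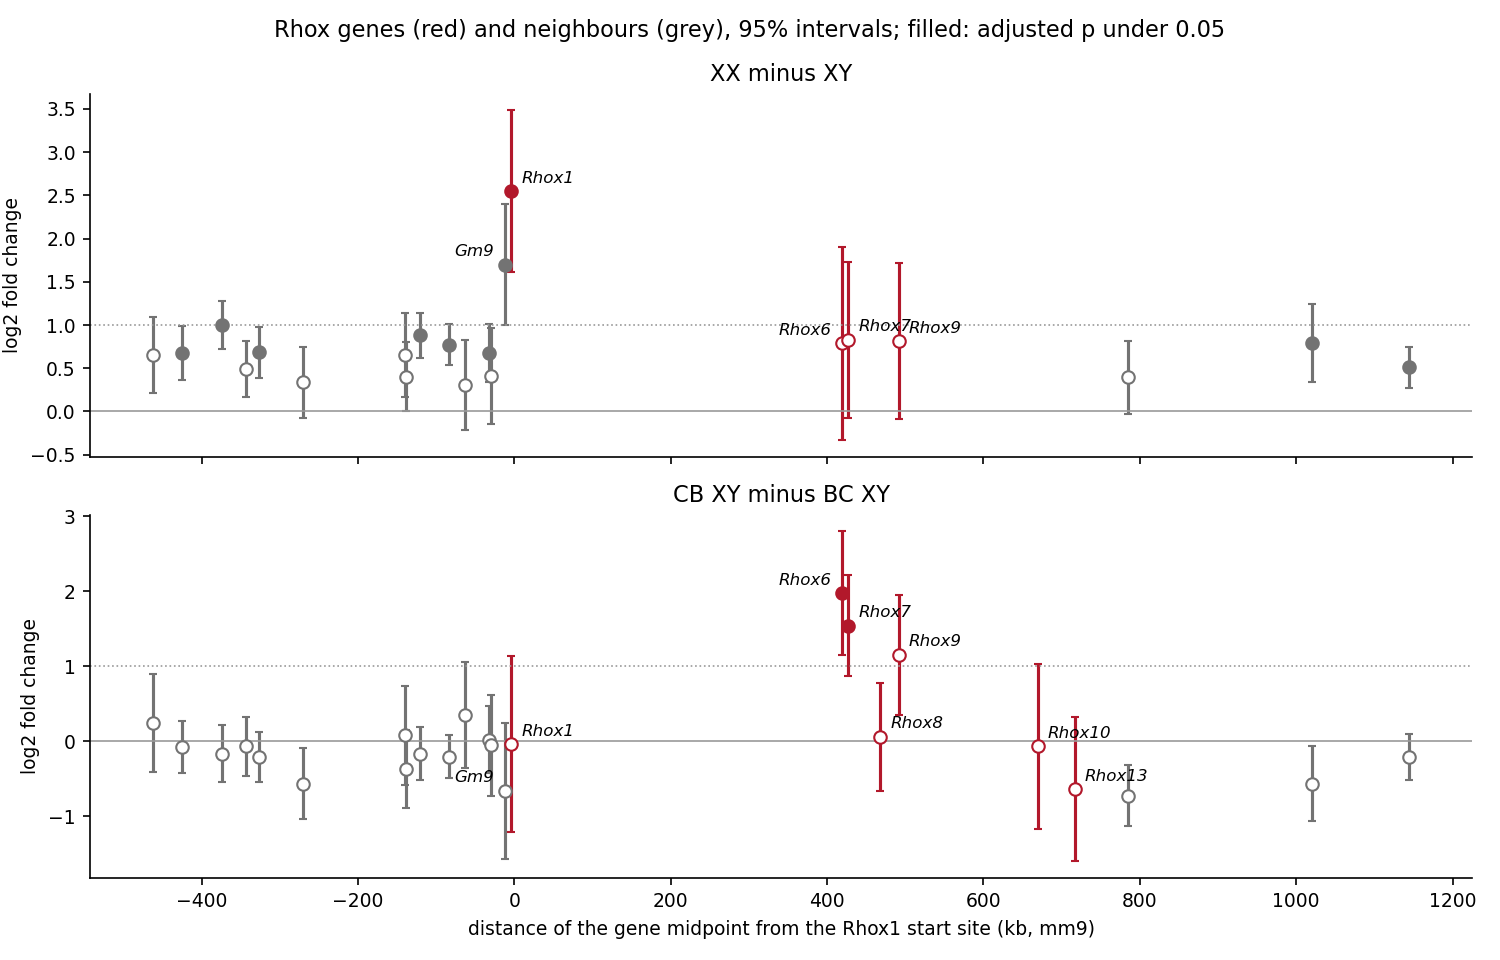
Log2 fold changes with 95% intervals of *Rhox* genes (red) and neighbouring genes (grey) against their distance in kb from the start of *Rhox1*, for XX minus XY lines (top) and CB XY minus BC XY lines (bottom). Filled points have an adjusted p below 0.05. *Rhox1* and *Gm9* stand above the other neighbours at the top, and *Rhox6*, *Rhox7* and *Rhox9* at the bottom, where the point of *Rhox9* is not filled. *Rhox7* entered the model through the CB lines, where it is high, so its point at the bottom is not independent of that filter.

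Genes tied to DNA methylation were examined because the family is known to be methylated. Of 13 writers, erasers and readers of methylation, all tested, 2 were lower in XX than in XY lines in limma, as were 1.99% of all genes. The median log2 fold change was -0.0010, against -0.028 over all genes. *Dnmt3b* (-1.35, SE 0.29, adjusted p = 0.017) and *Dnmt3a* (-0.62, SE 0.16, adjusted p = 0.044), the de novo methyltransferases, were lower in XX lines. By cross, *Dnmt3b* passed in CB (-1.86, adjusted p = 0.014) but not in BC lines (-0.84, adjusted p = 0.18). *Dnmt3a* passed in neither (-0.57 in CB and -0.67 in BC lines, adjusted p = 0.26 and 0.15). *Dnmt1*, *Uhrf1* and the *Tet* genes did not pass. Of 22 germline genes known to be silenced by methylation, 19 were tested, 7 were higher and 0 lower in XX lines, with a median of 0.70. Of all genes, 3.21% were higher and 1.99% lower. *Usp26* (3.50, SE 0.54, adjusted p = 0.0027), which is X-linked, *Hormad1* (2.39, SE 0.23, adjusted p = 0.00040), *Sycp1* (1.89, SE 0.42, adjusted p = 0.021) and *Fkbp6* (1.87, SE 0.41, adjusted p = 0.019), with roles in germ cells and meiosis, had the largest differences. *Hormad1* was also higher in BC XX than in BC XO lines (2.63, SE 0.35, adjusted p = 0.0065). It was 1 of 5 germline genes, of 21 tested, that were higher there, as were 3.06% of all genes. *Dnmt3b* (-0.82) and *Dnmt3a* (-0.54) did not pass in that comparison (adjusted p = 0.23 and 0.28 in limma). A link of these genes to *Rhox1* was not tested. Between CB XY and BC XY lines, none of 21 germline genes passed in either direction, where 0.64% of all genes did. So few calls over all genes leave a count of 0 among 21 uninformative. At an unadjusted p below 0.05 there were 8 germline genes, and the median was -0.55.

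By the correlation of log2 values over 14 lines, the genes most like *Rhox1* were *Apold1* (r = 0.97), *Slc6a8* (0.97) and *Mtmr1* (0.96). After *Rhox9*, those most like *Rhox6* were *Tbc1d25* (0.90) and *Kcnd1* (0.89), and after *Rhox6*, those most like *Rhox9* were *Fuom* (0.93) and *Kdm5c* (0.92). For *Rhox10* they were *Zfp286* (0.93), *Rhcg* (0.93) and *Tubb2a* (0.92). Apart from the *Rhox* genes themselves, 5 of these are X-linked. These values describe the 14 lines, in which group differences and depth are shared by all genes.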

How the data were processed

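Total RNA had been sequenced as stranded, ribosomal RNA-depleted single-end reads of 50 bases, with libraries prepared in batches that the sources used here do not assign to lines. The authors aligned reads to mm9 with TopHat2 and quantified genes with Cufflinks and Cuffdiff, for which versions are not given in the sources used here. The deposited table holds 1 signal value per gene and line, scaled by the authors. Between 96.2% and 98.2% of values lay within 0.05 of a whole multiple of the step of their line, too few to treat them as counts, so that no count model was run. A value of 3 steps was taken as the limit of detection, which covers counting error only. Groups follow the submitters' labels. Columns of the CB XX lines could not be matched to single titles and are numbered by column order.

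Values were compared as log2(value + 5) with limma 3.58.1 in R 4.3.3, with a mean-variance trend and two-sided tests. XX and XY lines were compared over 12 lines, for genes at 10 or more in at least 6 lines, and single groups in a model of 5 groups over 14 lines, for genes at 10 or more in at least 2 lines. The 15 genes listed at 0 in all lines of a group but at 100 or more elsewhere were left out. P-values were adjusted by Benjamini-Hochberg over all genes tested. The fit was tested on simulated data. Tables and plots were made with Python 3.11.15, pandas 2.3.3, numpy 2.4.6 and matplotlib 3.10.9. Lines came from separate blastocysts.

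Named were all *Rhox* genes of the table, *Gm9* and genes within 500 kb, at most 4 genes of each list, and the 3 genes most correlated with each member. The result of 1 gene of the DNA methylation list is not reported here. Members and lists were chosen with earlier results of these data known. Alternatives were other pseudocounts, scalings and filters, single lines left out, the libraries labelled CB XY 2 and 3 left out, cross or fibroblast level as a covariate, fits on only the compared groups, and the replicate number as a block.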

Additional observations from a re-analysis of the deposited data

How the results depend on the processing

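Limits: groups hold 2 or 3 lines, and calls between groups lie close to the threshold. *Rhox10* and the XY and XO values of *Rhox1* are near the limit of detection. The count tests planned on whole reads were not run, since values could not be taken as counts, and the trimmed mean of M-values scaling was computed by an own function.

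The difference of *Rhox1* between XX and XY lines was past the threshold under all 10 alternatives (1.70 to 3.16, adjusted p = 0.0030 to 0.010) and without each of the 12 lines (2.34 to 2.81, adjusted p = 0.0026 to 0.015). *Rhox6* and *Rhox9* were not past it over these 12 lines under any of them. The number of members called, 1 with all lines, was 0 between BC XX and BC XY under log2(value + 1), log2(value + 20), no filter, the fibroblast covariate and the replicate block. It was 0 between CB XX and CB XY with only the lines of the groups compared. Between BC XX and BC XO it was 0 under log2(value + 1), log2(value + 20), no filter and the fibroblast covariate. Between CB XX and BC XX it was 0 under log2(value + 1), no filter, the fibroblast covariate, only the lines compared, and without the libraries labelled CB XY 2 and 3. Between CB XY and BC XY it was 0 with no filter and without those lines. The cause was not tested.

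With 1 line left out, the number called was 1 for XX against XY, 0 to 1 for BC XX against BC XY, 0 to 2 for CB XX against CB XY and for CB XX against BC XX, and 0 for BC XX against BC XO and for CB XY against BC XY. Differences close to 0 changed sign. *Rhox1* between CB XY and BC XY was 0.044 under log2(value + 20), 0.0066 with quantile normalization, 0.029 with the fibroblast covariate and -0.71 to 0.42 without 1 line. *Rhox10* there was 0.065 with quantile normalization and -0.34 to 0.071 without 1 line. *Rhox6* and *Rhox9* between BC XX and BC XO ran from -0.37 to 0.48 and from -0.25 to 0.62 without 1 line. The *Rhox9* difference between crosses in XX minus XY was 0.56 with the fibroblast covariate and -0.52 to 0.35 without 1 line.

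Replicate numbers did not pair lines: r of deviations of same-numbered lines was -0.17, 0.25 and -0.055 for BC XX with BC XY and 0.27, 0.016 and -0.22 for CB XY with BC XY. With the number as a replicate block, *Rhox1* was 1.98 (adjusted p = 0.11) between BC XX and BC XY and 2.59 (adjusted p = 0.00015) between BC XX and BC XO, and *Rhox6* was 1.97 (adjusted p = 0.011) between CB XY and BC XY. No paired analysis was possible for CB XX because its columns carry no number from the labels.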

Other observations

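Markers of cell types in which *Rhox* genes are known to be expressed were read beside the members. Of 8 primordial germ cell genes, 7 were tested and 0 passed between XX and XY lines in limma, with 1 at an unadjusted p below 0.05. *Prdm14*, a regulator of germ cell fate and pluripotency, was higher in CB XX than in CB XY lines (log2 fold change 1.13, SE 0.27, adjusted p = 0.033 in limma). There it was the 1 gene of 7 that passed, 3 of the 7 were above 0, and the median was -0.13. *Tfap2c*, a germ cell and trophoblast factor, was higher in CB XX than in BC XX lines (0.90, SE 0.24, adjusted p = 0.042 in limma), as *Rhox6* was. It was likewise the 1 gene of 7 that passed, with 6 above 0 and a median of 0.36. Of all genes, 2.11% and 2.9% were higher in these comparisons.

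Of 12 trophoblast markers, 8 were tested between XX and XY lines and 0 passed, with 3 at an unadjusted p below 0.05 and a median of -0.94. Between CB XX and BC XX lines, where *Rhox6* was higher, 2 of 9 tested were lower in limma. These were the keratin genes *Krt8* (-2.37, SE 0.56, adjusted p = 0.028) and *Krt18* (-2.28, SE 0.56, adjusted p = 0.032). The median over the 9 was -0.93, and 3 of them were above 0. The summed value of the list was 1089 to 4785 in CB XX, 3335 to 8500 in CB XY, 5904 to 9780 in BC XX, 9714 to 13582 in BC XY and 8898 to 18035 in BC XO lines. Of 11 primitive endoderm genes tested, 3 were also lower in CB XX than in BC XX lines in limma. These were *Gata6* (-2.75, SE 0.51, adjusted p = 0.010), *Foxa2* (-2.40, SE 0.53, adjusted p = 0.021) and *Sox17* (-1.73, SE 0.48, adjusted p = 0.046). The list did not move as a whole, since 5 of the 11 had a positive difference and the median was -0.33. In the same comparison 17 of 29 fibroblast genes were lower (median -1.82), as were 4.25% of all genes. Of 8 pluripotency genes, 0 passed in that comparison, with 6 at an unadjusted p below 0.05 and a median of 0.62. The part of these cell types in the *Rhox* differences was not tested.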
